A study of Rattus norvegicus with 9 samples.

Results

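The genes described here encode the gap junctions and the mechanical junctions of the intercalated disc, the specialised border at which heart muscle cells are joined end to end. They were taken by gene symbol from a set of 10 (Gja1, Gja4, Gja5, Gjc1, Jup, Dsp, Dsg2, Dsc2, Pkp2 and Cdh2), of which 8 had a row among the 14607 genes listed in any library. Dsp and Dsg2 had no row under that symbol, so their expression was not analysed here. The genes were chosen by their measured counts and FPKM in all 3 groups, Gja5, Gja1 and Jup for their contrast, so the levels and differences of the 8 genes are a description, and no p-value is given for them.

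Messenger RNA was sequenced from primary cardiomyocytes of newborn rats (1 to 2 days old, strain labelled SD) that had been infected with a lentivirus for 16 h and then kept for 48 h in medium with 10% fetal bovine serum. The lenti-TCF7L2 WT virus carried TCF7L2 for overexpression; this DNA-binding protein is a partner of β-catenin in canonical Wnt signalling. The lenti-TCF7L2 shRNA virus carried a short hairpin RNA for its knock down, and lenti-NC was the vector control. Each group held 3 libraries, and the cells of all groups were infected with a lentivirus. The promoters of the vectors, the species of the TCF7L2 insert, the pooling of animals and whether replicates were separate cultures are not given in the sources used here, so p-values measure the spread between these samples, which may be technical.

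Gap junctions are clusters of channels built from connexins, which let current pass from cell to cell. Gja1 encodes connexin 43, the main connexin of working ventricular muscle; Gja5 encodes connexin 40 of atrial muscle, the conduction system and arterial endothelium; Gja4 encodes connexin 37 of endothelium; Gjc1 encodes connexin 45 of nodal and embryonic heart cells. Cdh2 (N-cadherin) binds neighbouring cells at adherens junctions. Desmosomes hold the cells together through cadherins such as desmocollin 2 (Dsc2), whose tails bind the armadillo proteins plakoglobin (Jup) and plakophilin 2 (Pkp2). Plakoglobin is a close relative of β-catenin, and the annotation carried by the deposited tables lists it, alone among the 8 genes, under the catenin-TCF7L2 complex. That annotation lists 4 of the 8 under gap junction and 3 (Gja1, Jup and Cdh2) under cell-cell adherens junction.

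The promoter windows of Gja5, Gja1 and Jup are shown because these genes had 3 different patterns over the groups. They are RefSeq sequence of build GRCr8, each 300 bases from 250 before the annotated gene start to 50 after it, written 5′ to 3′ along the gene. Gja5 is at chr2:187290977-187291276 on the + strand, Gja1 at chr20:36302314-36302613 on the + strand and Jup at chr10:85827380-85827679 on the - strand. Capitals mark matches, on either strand, to GGGCGG, the core of a Sp1 site, or to TATAAA, the core of a TATA box. A match says only that these letters are present, not that they act as such a site.
Gja5: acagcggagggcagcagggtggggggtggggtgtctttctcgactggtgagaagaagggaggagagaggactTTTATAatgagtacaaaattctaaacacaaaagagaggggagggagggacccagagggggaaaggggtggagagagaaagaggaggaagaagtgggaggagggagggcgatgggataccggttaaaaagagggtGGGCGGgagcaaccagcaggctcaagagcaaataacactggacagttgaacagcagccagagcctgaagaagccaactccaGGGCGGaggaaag
Gja1: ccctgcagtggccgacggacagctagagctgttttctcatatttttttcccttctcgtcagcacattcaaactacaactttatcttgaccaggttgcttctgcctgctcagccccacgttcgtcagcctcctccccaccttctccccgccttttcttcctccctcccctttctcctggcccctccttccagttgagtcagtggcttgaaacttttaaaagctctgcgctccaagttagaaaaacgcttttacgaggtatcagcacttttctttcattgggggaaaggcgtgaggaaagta
Jup: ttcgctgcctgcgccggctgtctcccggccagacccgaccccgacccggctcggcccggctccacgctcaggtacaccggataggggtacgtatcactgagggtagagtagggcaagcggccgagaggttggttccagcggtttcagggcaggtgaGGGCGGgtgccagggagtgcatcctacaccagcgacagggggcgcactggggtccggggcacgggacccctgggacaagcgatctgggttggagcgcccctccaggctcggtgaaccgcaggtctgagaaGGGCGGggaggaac

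The TCF/LEF core CTTTGA and the T-box core GGTGTG were searched for as well, on both strands. Neither had a match in the Gja5, Gja1 or Jup window, which says only that these letters are not in those bases. Windows were found for 7 of the 10 genes (Dsp and Dsg2 among them, but not Gjc1, Pkp2 and Cdh2), and CTTTGA matched in 0 of the 7. Among all 33469 promoter windows, CTTTGA matched in 16.1%, GGTGTG in 17.9%, GGGCGG in 33.1% and TATAAA in 14.2%. Gja5 held GGGCGG 2 times, starting 44 bases before and 38 bases after the gene start, and TATAAA once in reverse, from 178 bases before it. Jup held GGGCGG 2 times, at 94 bases before and 37 bases after the start, while the Gja1 window held neither motif and had a GC content of 50.3%, against 55.3% for Gja5 and 69.0% for Jup.

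The libraries held between 15085922 and 16478295 expected counts each, and 11761 genes were tested. Tcf7l2, the targeted gene, had 142, 206 and 85.7 CPM with lenti-TCF7L2 WT, 25.6, 30.3 and 25.9 CPM with lenti-TCF7L2 shRNA, and 40.0, 36.4 and 34.1 CPM with lenti-NC (CPM are expected counts scaled to a common library size after TMM normalisation). Its log2 difference from lenti-NC was 1.97 (SE 0.27, edgeR quasi-likelihood adjusted p = 8.46e-04) with lenti-TCF7L2 WT and -0.43 (SE 0.27, adjusted p = 0.511) with lenti-TCF7L2 shRNA. The spread in this fit comes from all groups, and the SD was 60.1 CPM with lenti-TCF7L2 WT, 2.63 with lenti-TCF7L2 shRNA and 2.99 with lenti-NC. Every lenti-TCF7L2 shRNA library was below every lenti-NC library in CPM and FPKM. In CPM this held for 21% of all tested genes. Lenti-TCF7L2 WT replicate 3 stood apart most by gene length: its genes of up to 1000 bases had a median log2 of 0.49 against the lenti-NC mean and those over 8000 bases -0.98. Lenti-TCF7L2 WT replicate 1 leaned the same way (0.14 and -0.33), while replicate 2 did not (-0.07 and -0.007). Of 12 cardiomyocyte markers, 11 were listed (not Ttn) and none of these was at 0, nor was any listed marker of fibroblasts, endothelium or smooth muscle. Summed cardiomyocyte marker levels were 25208 to 31648 CPM with lenti-TCF7L2 WT, 51731 to 52627 CPM with lenti-TCF7L2 shRNA and 56350 to 57421 CPM with lenti-NC. In such bulk cultures, fewer cells of a type and less RNA per cell cannot be told apart.

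**Figure D1:**
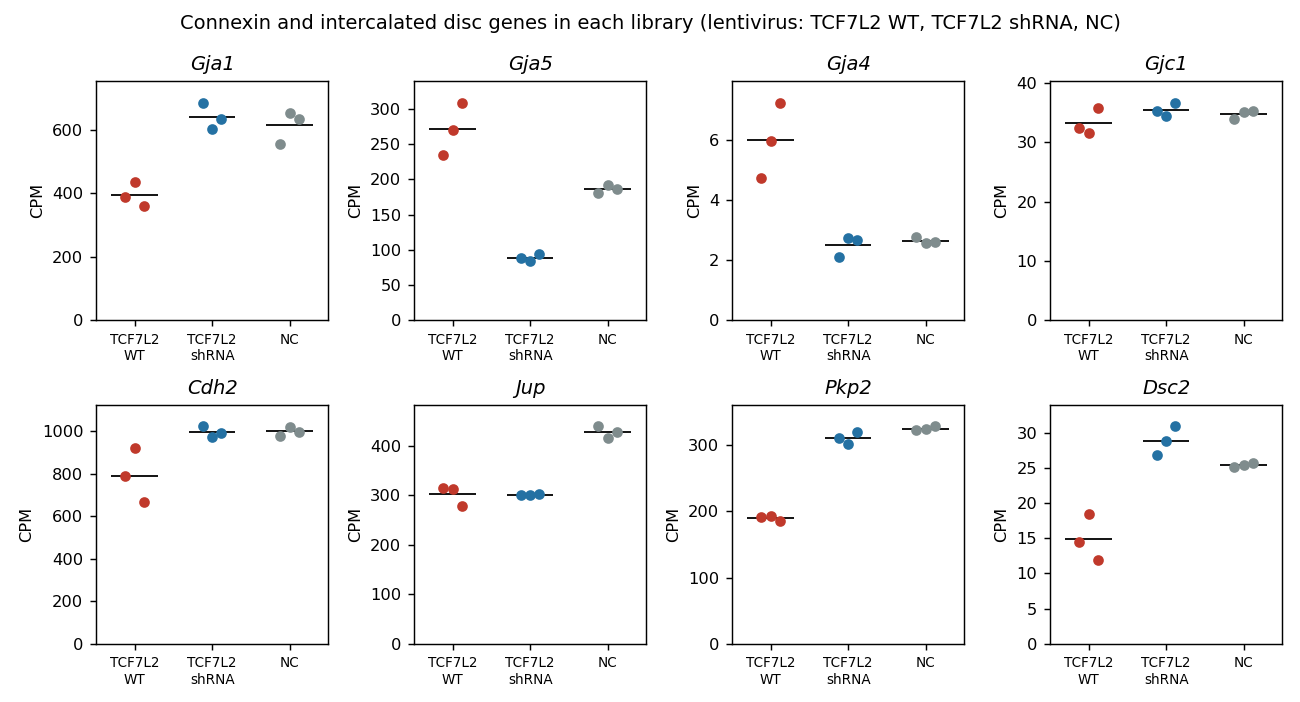
CPM of the 8 genes in each library (points; replicates 1 to 3 from left to right) with the group mean (line), for lenti-TCF7L2 WT, lenti-TCF7L2 shRNA and lenti-NC; the axes start at 0. Gja5 is highest with lenti-TCF7L2 WT and lowest with lenti-TCF7L2 shRNA, Jup is lower with both viruses, and Gja1, Cdh2, Pkp2 and Dsc2 are lower with lenti-TCF7L2 WT.

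Of the 8 genes, 2 lay higher and 5 lower with lenti-TCF7L2 WT than with lenti-NC at an adjusted p under 0.05, against a background of 31.8% of all tested genes called in either direction (18% higher and 13.8% lower). All 8 passed the filter on low counts. With lenti-TCF7L2 shRNA 2 of the 8 were called, both lower, against a background of 3.64% (1.32% higher, 2.32% lower). Since the genes were chosen with these contrasts known, nothing is read from either count. The same 7 genes had groups without overlap in CPM with lenti-TCF7L2 WT, 2 higher and 5 lower, beside 46.8% of all tested genes (24.9% higher and 22% lower). With lenti-TCF7L2 shRNA 4 did, 1 higher and 3 lower, beside 40.9% of all tested genes (19.9% higher and 21% lower). The median log2 difference of the 8 was -0.42 with lenti-TCF7L2 WT and -0.03 with lenti-TCF7L2 shRNA, beside 0.03 and 0.01 over all tested genes.

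Gja5 lay on opposite sides of the control with the 2 TCF7L2 viruses. It had 234, 270.5 and 309 CPM with lenti-TCF7L2 WT, 88.7, 84.2 and 93.4 CPM with lenti-TCF7L2 shRNA, and 180.1, 192 and 187 CPM with lenti-NC. None of the 3 groups overlapped another, and the lenti-TCF7L2 WT libraries were the most spread. The log2 difference from lenti-NC was 0.54 (SE 0.10, 1.46-fold) with lenti-TCF7L2 WT and -1.07 (SE 0.10, 52.3% lower) with lenti-TCF7L2 shRNA. In FPKM, Gja5 averaged 87.7 ± 11.9 with lenti-TCF7L2 WT, 28.3 ± 1.35 with lenti-TCF7L2 shRNA and 58.2 ± 1.76 with lenti-NC (SD, n = 3 each). The FPKM are the authors' values, which divide by gene length and do not carry the TMM scaling of the CPM. Both comparisons use the same lenti-NC libraries.

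Gja1, the most abundant connexin, stood lower with lenti-TCF7L2 WT and within the control range or just above it with lenti-TCF7L2 shRNA. It had 389, 437 and 359 CPM with lenti-TCF7L2 WT, 686, 604 and 635 CPM with lenti-TCF7L2 shRNA, and 555, 655 and 636 CPM with lenti-NC. Every lenti-TCF7L2 WT library was below every lenti-NC library, while the lenti-TCF7L2 shRNA and lenti-NC libraries overlapped. The log2 difference was -0.64 (SE 0.10, 35.8% lower) with lenti-TCF7L2 WT and 0.06 (SE 0.10) with lenti-TCF7L2 shRNA. The expected counts of Gja1, Gja5 and Cdh2 were not whole numbers, so part of their reads was shared out by the authors' counting between this and another entry, and these levels carry that uncertainty.

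Gja4, the endothelial connexin, was scarce. Its counts were 75, 94 and 121 with lenti-TCF7L2 WT, 32, 42 and 40 with lenti-TCF7L2 shRNA, and 41, 38 and 39 with lenti-NC. The lenti-TCF7L2 WT libraries all stood above the others, and the lenti-TCF7L2 shRNA and lenti-NC libraries overlapped. The log2 difference was 1.18 (SE 0.19) with lenti-TCF7L2 WT and -0.08 (SE 0.20) with lenti-TCF7L2 shRNA. Gjc1 had 32.5, 31.6 and 35.8 CPM with lenti-TCF7L2 WT, 35.3, 34.5 and 36.7 CPM with lenti-TCF7L2 shRNA, and 34.0, 35.1 and 35.4 CPM with lenti-NC. Its groups overlapped in CPM in both comparisons, with log2 differences of -0.06 (SE 0.08) for lenti-TCF7L2 WT and 0.03 (SE 0.08) for lenti-TCF7L2 shRNA. In FPKM the lenti-TCF7L2 shRNA libraries lay just above those of lenti-NC (22.3 ± 0.607 against 21.4 ± 0.429 FPKM; SD, n = 3 each).

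The make-up of the connexins was taken as each gene's share of the summed FPKM of the 15 listed connexins in a library. Gja5 made up 35.8 ± 4.05% with lenti-TCF7L2 WT, 10.8 ± 0.544% with lenti-TCF7L2 shRNA and 20.8 ± 0.780% with lenti-NC (SD, n = 3 each). Gja1 made up 51.7 ± 4.52% with lenti-TCF7L2 WT, 77.0 ± 1.28% with lenti-TCF7L2 shRNA and 68.0 ± 1.45% with lenti-NC. Per 100 FPKM of Gja1 there were thus 60.8, 62.5 and 87.0 FPKM of Gja5 in the lenti-TCF7L2 WT libraries, 13.1, 14.1 and 14.9 in the lenti-TCF7L2 shRNA libraries, and 32.8, 29.6 and 29.6 in the lenti-NC libraries. The ratio was highest in lenti-TCF7L2 WT replicate 3, and the 3 groups did not overlap. The summed connexin FPKM itself was 245 ± 13.6 with lenti-TCF7L2 WT, 263 ± 12.2 with lenti-TCF7L2 shRNA and 279.5 ± 18.0 with lenti-NC. Gjc1 took 8.69 ± 0.750% with lenti-TCF7L2 WT, 8.50 ± 0.400% with lenti-TCF7L2 shRNA and 7.68 ± 0.366% with lenti-NC.

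**Figure D2:**
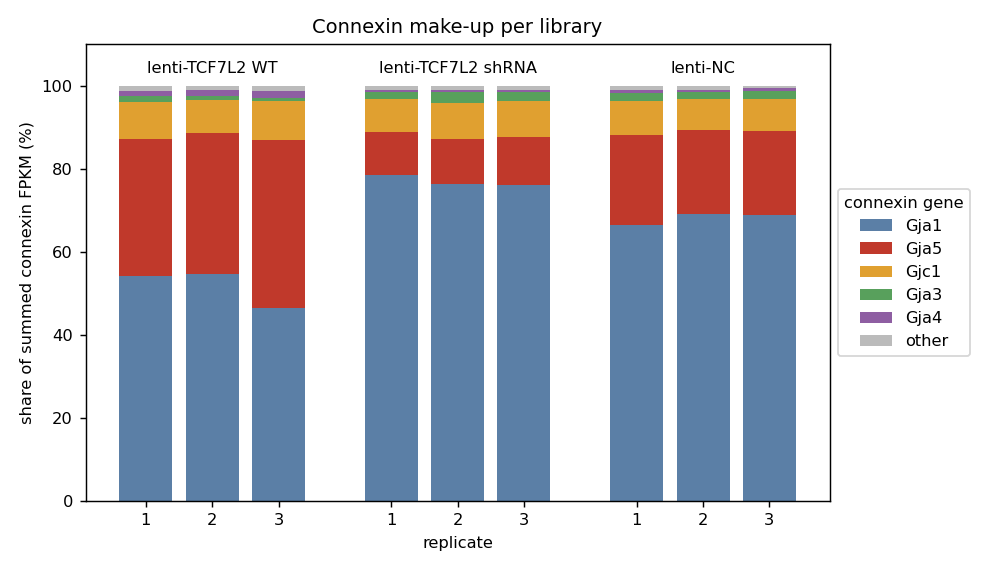
Share of the summed connexin FPKM (%) taken by Gja1, Gja5, Gjc1, Gja3, Gja4 and the other listed connexins, 1 stacked bar per library. The Gja5 part averages 35.8% with lenti-TCF7L2 WT, 10.8% with lenti-TCF7L2 shRNA and 20.8% with lenti-NC, and the Gja1 part 51.7%, 77.0% and 68.0%.

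Among the adhesion genes, Jup stood at almost the same lower level with both TCF7L2 viruses. It had 314, 313 and 279 CPM with lenti-TCF7L2 WT, 300.3, 301 and 303 CPM with lenti-TCF7L2 shRNA, and 440, 416 and 429 CPM with lenti-NC. All 6 libraries of the TCF7L2 viruses lay below all 3 lenti-NC libraries. The log2 difference was -0.50 (SE 0.07, 29.5% lower) with lenti-TCF7L2 WT and -0.51 (SE 0.07, 29.6% lower) with lenti-TCF7L2 shRNA. Each value is taken against the same 3 control libraries. Both differences of Jup were negative, while those of Gja5 had opposite signs, and the genes were chosen for this contrast.

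Pkp2, a protein of the desmosomal plaque that links the cadherins to the filament anchors, had 192, 193 and 186 CPM with lenti-TCF7L2 WT, 310.4, 303 and 319 CPM with lenti-TCF7L2 shRNA, and 323, 325 and 329 CPM with lenti-NC. The lenti-TCF7L2 WT libraries were low and close together. The log2 difference was -0.77 (SE 0.06, 41.5% lower) with lenti-TCF7L2 WT and -0.07 (SE 0.06) with lenti-TCF7L2 shRNA, where the groups were apart in CPM and overlapped in FPKM.

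Dsc2, a desmosomal cadherin, had 229, 290 and 200 counts with lenti-TCF7L2 WT, 406, 441 and 465 with lenti-TCF7L2 shRNA, and 373, 377 and 384 with lenti-NC. No pair of groups overlapped in CPM, with lenti-TCF7L2 shRNA highest. The log2 difference was -0.77 (SE 0.15, 41.2% lower) with lenti-TCF7L2 WT and 0.18 (SE 0.14) with lenti-TCF7L2 shRNA.

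Cdh2 was the highest of the 8 genes per length. It had 789, 921 and 666 CPM with lenti-TCF7L2 WT, 1023, 974 and 995 CPM with lenti-TCF7L2 shRNA, and 980, 1020 and 999 CPM with lenti-NC. The lenti-TCF7L2 WT libraries were below the others and widely spread. The log2 difference was -0.34 (SE 0.11) with lenti-TCF7L2 WT and -0.004 (SE 0.11) with lenti-TCF7L2 shRNA. The lenti-TCF7L2 WT value was called under 9 of the 21 other settings tried. It lost the call on leaving out any 1 lenti-NC or lenti-TCF7L2 shRNA library or lenti-TCF7L2 WT replicate 1, where it was -0.35 to -0.32. Some other settings, changes of method among them, lost the call as well. After an adjustment for gene length the difference was -0.20 and called. Cdh2 was chosen with its values known, so nothing is read from these calls.

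**Figure D3:**
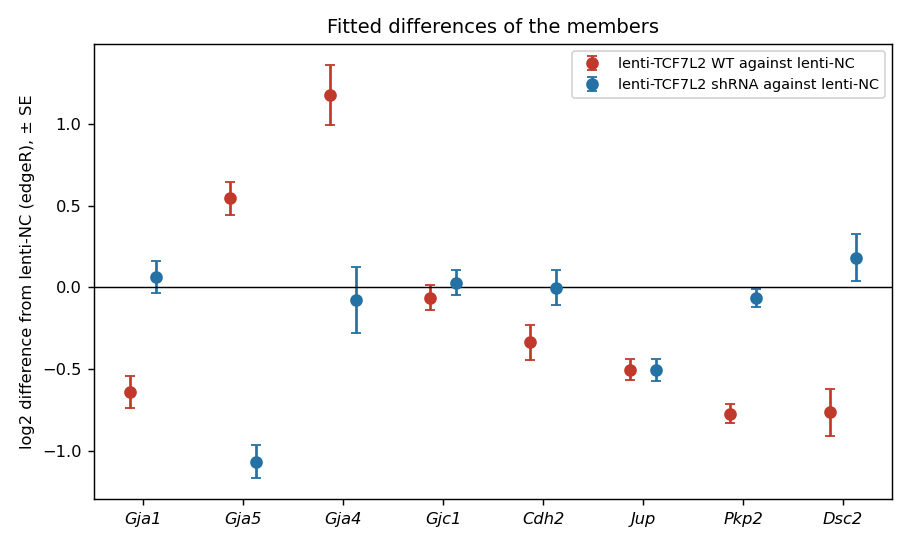
Log2 difference from lenti-NC (edgeR) of the 8 genes, with its SE, for lenti-TCF7L2 WT (left point of each pair) and lenti-TCF7L2 shRNA (right point); both use the same 3 lenti-NC libraries. Gja5 has values of 0.54 and -1.07, Jup -0.50 and -0.51, and Gja1 -0.64 and 0.06.

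Per length, the order in lenti-NC libraries was Cdh2 (223 FPKM), Gja1 (190.3), Jup (120.3), Pkp2 (110.8), Gja5 (58.2), Gjc1 (21.4), Dsc2 (5.44) and Gja4 (1.61), and no neighbours in it overlapped. With lenti-TCF7L2 WT the order was Cdh2 (183 FPKM), Gja1 (126), Jup (87.8), Gja5 (87.7), Pkp2 (67.2), Gjc1 (21.2), Gja4 (3.76) and Dsc2 (3.31). There Jup and Gja5 overlapped, as did Gja4 and Dsc2. With lenti-TCF7L2 shRNA Pkp2 (108 FPKM) stood above Jup (86.5), Gja5 was at 28.3 and Gja4 at 1.56, and no neighbours overlapped.

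The genes whose pattern was most like that of Gja5 were sought among 10220 tested genes averaging at least 50 counts, by the root mean square difference of log2 CPM minus the lenti-NC mean over the 9 libraries. They were Dpep1 (0.08), Il1rl1 (0.09), C1s (0.10), Gbp2 (0.13) and Tcf21 (0.15). Dpep1 encodes a membrane dipeptidase, Il1rl1 the receptor of interleukin 33, C1s a complement protease, Gbp2 an interferon-induced GTPase and Tcf21 a transcription factor of epicardium and cardiac fibroblasts. Among the other connexins of the set, Gja4 ranked 2632 (0.67), Gjc1 4368 (0.72) and Gja1 8724 (0.95). For Gja1 the nearest were Lrrc1, LOC100910827 (0.09 each), Plbd1 (0.09), Klhdc8b (0.10) and Mrs2 (0.10), and Pkp2 ranked 87 (0.14), Dsc2 214 (0.16) and Cdh2 372 (0.19). For Jup they were Sh3bp5 (0.07), Klhl7 (0.08), Tgfbi (0.08), the clock repressor Nr1d1 (0.08) and Abcb1b (0.09), with Pkp2 at rank 922 (0.30).

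Markers of cardiomyocytes and of other cells were counted in the same fit, from lists chosen with earlier results of these data known. The part of these markers in the values above was not tested. These counts stand beside the shares of all tested genes given above, 18% higher and 13.8% lower with lenti-TCF7L2 WT and 1.32% higher and 2.32% lower with lenti-TCF7L2 shRNA. Of 11 cardiomyocyte markers tested, 10 fell with lenti-TCF7L2 WT (median log2 -0.92). With lenti-TCF7L2 shRNA edgeR called 0 (median -0.08), 1 was lower at an unadjusted p under 0.05, and DESeq2 called 1 lower. Of 12 endothelial markers, 10 rose with lenti-TCF7L2 WT (median 1.60; summed level 893 to 1077 CPM, against 656 to 683 CPM with lenti-NC), and edgeR called 0 with lenti-TCF7L2 shRNA (563 to 573 CPM; 1 higher and 1 lower at an unadjusted p under 0.05, and 1 lower in DESeq2). Of 9 tested arterial endothelial markers, 5 rose with lenti-TCF7L2 WT (summed level of the 10 listed 263 to 709 CPM, against 571 to 619 CPM with lenti-NC), and 1 fell with lenti-TCF7L2 shRNA (522 to 543 CPM). With lenti-TCF7L2 WT, 1 endothelial marker was called lower in DESeq2, and 2 arterial markers were lower at an unadjusted p under 0.05. The summed endothelial level was mostly Eng, at 570 to 685 CPM with lenti-TCF7L2 WT. Both lists stand beside Gja4 and Gja5, which endothelium also expresses.

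Of 10 fibroblast markers, 5 rose and 1 fell with lenti-TCF7L2 WT, and 5 fell with lenti-TCF7L2 shRNA (median -0.61), where DESeq2 called 6 lower and 1 higher. Of these, picked after their values were seen, the matrix proteoglycan Dcn differed by 0.90 with lenti-TCF7L2 WT (edgeR adjusted p = 5.54e-04) and -0.94 with lenti-TCF7L2 shRNA (adjusted p = 0.00380). Tcf21 differed by 0.49 (adjusted p = 0.00379) and -1.01 (adjusted p = 0.00141). It is among the 5 genes named above for their likeness to Gja5 (0.54 and -1.07), so nothing is read from that likeness. Other markers of the list differed otherwise: the matrix protein gene Postn by -0.36 (adjusted p = 0.0471) and -0.27 (adjusted p = 0.305), and the collagen gene Col1a1 by 0.28 (adjusted p = 0.0680) and 0.36 (adjusted p = 0.109). The summed fibroblast level, which is mostly collagen, was 37618 to 45009 CPM with lenti-TCF7L2 WT, 37523 to 39553 CPM with lenti-TCF7L2 shRNA and 34589 to 35702 CPM with lenti-NC. Of 11 tested atrial and conduction markers, 2 rose and 2 fell with lenti-TCF7L2 WT. With lenti-TCF7L2 shRNA edgeR and DESeq2 called 0, and 1 was higher at an unadjusted p under 0.05 (summed 423 to 540.1, 814 to 839 and 765 to 804 CPM with lenti-TCF7L2 WT, lenti-TCF7L2 shRNA and lenti-NC). Macrophage markers had 4 of 7 higher with lenti-TCF7L2 WT (summed 72.6 to 78.0 CPM) and 2 of 7 higher with lenti-TCF7L2 shRNA (44.2 to 47.5 CPM), against 41.0 to 42.2 CPM with lenti-NC. C1qa, C1qb and Aif1 were at 0 in at least 1 library. Epithelial and mesothelial markers, relevant because desmosomes are also epithelial, had 2 of 6 higher and 1 lower with lenti-TCF7L2 WT (summed 62.8 to 82.9 CPM), and 0 in edgeR with lenti-TCF7L2 shRNA (48.9 to 57.3 CPM; 1 lower at an unadjusted p under 0.05 and in DESeq2), against 56.8 to 70.9 CPM with lenti-NC. Epcam, Cdh1 and Krt5 were at 0 in at least 1 library. Smooth muscle and pericyte markers had 2 of 10 higher and 1 lower with lenti-TCF7L2 WT (summed 8313 to 9552 CPM) and 1 higher with lenti-TCF7L2 shRNA (9262 to 9567 CPM), against 9635 to 9864 CPM with lenti-NC.

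A list of 75 other junction genes, none of them among the 10, was taken through the same fit, and 48 of the 62 listed passed the filter on low counts. The list was chosen with earlier results of these data known, so nothing is read from its shares of called genes. The p-values of its genes carry the same limit. With lenti-TCF7L2 WT, 22 of the 48 fell and 4 rose, which is 54.2% called against 31.8% of all tested genes. Their median log2 difference was -0.42, against 0.03 over all tested genes. With lenti-TCF7L2 shRNA, 1 of the 48 fell and 0 rose (2.08%, against 3.64% of all tested genes, median -0.08). At an unadjusted p under 0.05 there were 4 lower and 2 higher, and DESeq2 called 2 lower and 1 higher. All of these take the spread of a gene from all 9 libraries, those of lenti-TCF7L2 WT among them. In a fit of only the 6 libraries compared, 9 list genes fell and 5 rose. That fit called 3294 genes in all, against 428 in the main fit.

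Adherens junction genes had 6 of 11 lower and 1 higher with lenti-TCF7L2 WT (median -0.39). Ctnna1, α-catenin, which ties cadherins to actin, fell to 889 ± 8.24 CPM with lenti-TCF7L2 WT, against 1331 ± 10.4 CPM with lenti-NC (log2 -0.58, SE 0.06, edgeR adjusted p = 2.65e-04). Nrap, an actin-anchoring protein of the disc, fell by 1.27 on the log2 scale (SE 0.11, adjusted p = 1.03e-04) and Sorbs2, an adaptor protein, by 0.97 (SE 0.12). Cdh5, the cadherin of endothelium, rose to 27.2 ± 15.9 CPM with lenti-TCF7L2 WT, against 6.92 ± 0.646 CPM with lenti-NC (log2 1.97, SE 0.37, adjusted p = 0.00400); it is among the endothelial markers above as well. With lenti-TCF7L2 shRNA 0 of the 11 were called in edgeR (3 lower at an unadjusted p under 0.05, and 1 lower in DESeq2), with Ctnna1 at -0.19 (adjusted p = 0.150) and Sorbs2 at -0.31 (adjusted p = 0.211). Without lenti-TCF7L2 WT replicate 3 both of these passed.

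Desmosome and intermediate filament genes had 3 of 6 lower and 0 higher with lenti-TCF7L2 WT (median -0.65; 2 higher at an unadjusted p under 0.05). Perp, a membrane protein of desmosomes, fell to 42.7 ± 0.332 CPM with lenti-TCF7L2 WT, against 84.6 ± 2.29 CPM with lenti-NC (log2 -0.99, SE 0.06, edgeR adjusted p = 2.82e-05). Pkp1, a relative of Pkp2, fell by 0.82 (SE 0.13), and Des, the desmin filament anchored at desmosomes, by 0.48 (SE 0.10). With lenti-TCF7L2 shRNA 0 of the 6 were called in edgeR (2 higher at an unadjusted p under 0.05, and 1 higher in DESeq2). Des differed by -0.09 (adjusted p = 0.798) and Tmem43, a membrane protein, by 0.31 (adjusted p = 0.0721), which passed without lenti-TCF7L2 WT replicate 3.

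Of the other connexins and pannexins, 6 were tested. Gja3, connexin 46, fell to 3.85 ± 1.05 CPM with lenti-TCF7L2 WT, against 8.77 ± 0.644 CPM with lenti-NC (log2 -1.19, SE 0.20, edgeR adjusted p = 0.00227). Gjb2, connexin 26, stood at 1.72 ± 0.389 CPM with lenti-TCF7L2 WT and 0.717 ± 0.319 CPM with lenti-NC; the call of its rise of 1.25 (SE 0.39, adjusted p = 0.0362) was lost without lenti-NC replicate 1 or 3, lenti-TCF7L2 WT replicate 1, or lenti-TCF7L2 shRNA replicate 1 or 2, with values of 1.03 to 1.24. With lenti-TCF7L2 shRNA 0 of the 6 were called in edgeR or DESeq2, and none had an unadjusted p under 0.05. Gja3 differed by 0.01 and the pannexin Panx1 by -0.09 there.

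Scaffold, tight junction and trafficking genes had 8 of 17 lower and 2 higher with lenti-TCF7L2 WT (median -0.50). Popdc2 and Bves, cAMP-binding membrane proteins of striated muscle, fell by 1.12 (SE 0.06, edgeR adjusted p = 2.37e-05) and 0.63 (SE 0.06). Clmp, an adhesion molecule related to the coxsackievirus receptor, rose by 0.84 (SE 0.07), and Cldn5 of endothelial tight junctions by 3.55 (SE 0.45) at 4.53 ± 1.99 CPM with lenti-TCF7L2 WT, against 0.380 ± 0.138 CPM with lenti-NC. Popdc2 was the 1 gene called with lenti-TCF7L2 shRNA, at 352 ± 5.84 CPM, against 451 ± 3.93 CPM with lenti-NC (log2 -0.35, SE 0.06, adjusted p = 0.0120); the call was lost on leaving out any 1 of the lenti-NC or lenti-TCF7L2 shRNA libraries, while the difference stayed at -0.37 to -0.34.

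The channels that share the disc had 4 of 8 lower and 0 higher with lenti-TCF7L2 WT (median -0.75). Scn4b, an accessory channel subunit, fell to 5.26 ± 0.992 CPM with lenti-TCF7L2 WT, against 16.5 ± 1.08 CPM with lenti-NC (log2 -1.65, SE 0.15, edgeR adjusted p = 1.50e-04). Kcnj11, the pore of the ATP-sensitive potassium channel, fell by 1.04 (SE 0.11, adjusted p = 2.20e-04). With lenti-TCF7L2 shRNA 0 of the 8 were called in the main edgeR fit or in DESeq2, and none had an unadjusted p under 0.05 in the main fit.

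**Figure D4:**
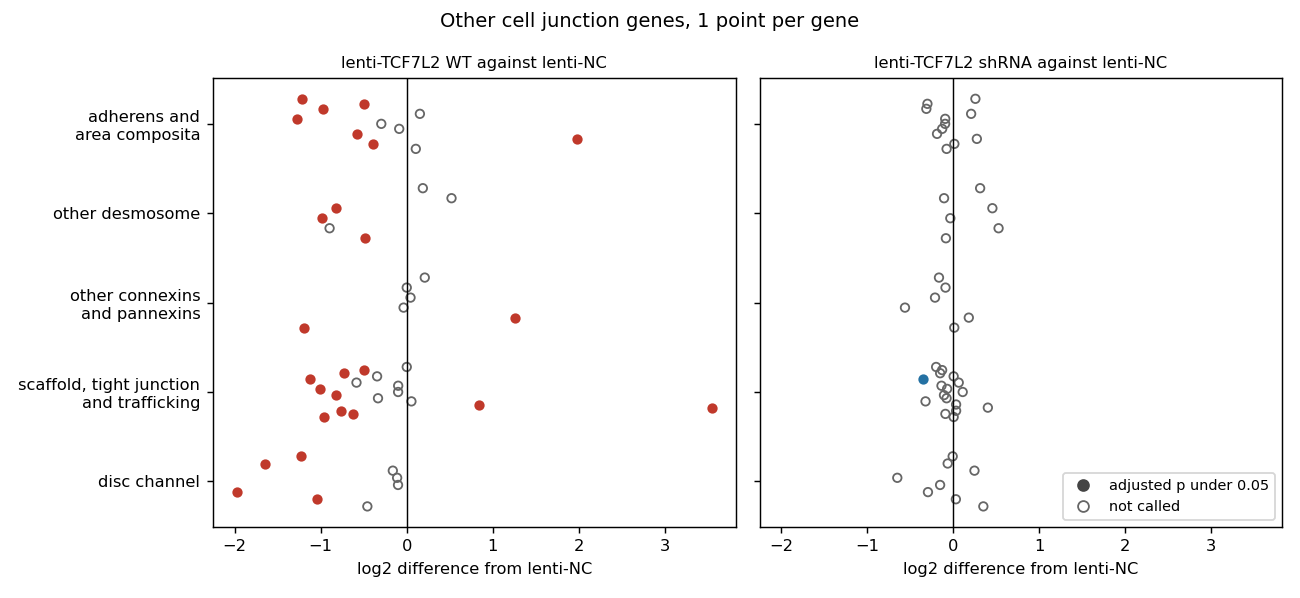
Log2 difference from lenti-NC of 48 other junction genes, 1 point per gene, by functional group, for lenti-TCF7L2 WT (left) and lenti-TCF7L2 shRNA (right); filled points had an adjusted p under 0.05. With lenti-TCF7L2 WT 22 filled points lie below 0 and 4 above; with lenti-TCF7L2 shRNA 1 lies below 0.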

How the data were processed

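The rat build rn6 and the tools RSEM 1.3.1, Bowtie2, HISAT2 and DESeq2 1.4.5 are listed, without roles or order, per the submitters' processing notes. Each library came as its own table. Its unnormalised expected counts were deposited by the authors, with 84.2% to 84.5% of values exactly whole as written. The authors also gave FPKM, which scales fragments by gene length and library size, and a length for each gene. A gene missing from 1 table counted as 0 there.

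Expected counts were rounded and filtered with filterByExpr, which left 11761 genes and set aside 2846. Differences were tested with edgeR 4.0.16 in R 4.3.3 (TMM scaling, quasi-likelihood test, 2-sided), with group as the only term and the 9 libraries fitted together. Benjamini-Hochberg adjustment ran over all tested genes, and an adjusted p under 0.05 was called. Each SE is the absolute log2 difference over the square root of F, and the biological coefficient of variation was 14.9%.

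Genes were matched to RefSeq promoter windows by gene identifier. The 10 genes and all lists were chosen with earlier results of these data known. Named besides them were, per list group and comparison, up to 4 called genes with the smallest adjusted p (at most 3 per direction), or the 2 with the highest mean count, and the 5 genes nearest in pattern to Gja5, Gja1 and Jup. Alternatives used DESeq2 1.42.0, limma 3.58.1 on log2(FPKM + 1) or log2(FPKM + 0.1), other scalings and filters (at least 10 counts in 6 libraries), a replicate block, a fit of the 6 libraries compared, a lowess trend on gene length (span 0.3), and each library left out. The labels give no pairing of libraries by replicate number. Of 9 residual correlations between libraries of the same number, 2 were over 0.1. They were not set beside those of unlike number, so they cannot tell whether the numbers pair the libraries. Some genes that the naming rule selects are not reported here.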

Additional observations from a re-analysis of the deposited data

How the results depend on the processing

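No sign among the called values of the 8 genes turned under any of the 21 settings. With lenti-TCF7L2 WT the log2 difference ran from 0.42 to 0.63 for Gja5, -0.72 to -0.59 for Gja1, -0.54 to -0.45 for Jup, -0.79 to -0.71 for Pkp2, -0.95 to -0.59 for Dsc2 and 0.86 to 1.31 for Gja4, called each time. With lenti-TCF7L2 shRNA it ran from -1.11 to -1.01 for Gja5 and -0.53 to -0.47 for Jup, called each time. The genes were chosen with these values known and the settings share libraries, so nothing is read from these calls. Gjc1 with lenti-TCF7L2 WT was called, at -0.19 and -0.18, in the length adjustments with and without lenti-TCF7L2 WT replicate 3. Apart from genes left out or taken in by a filter, the causes of the shifts below were not tested. With lenti-TCF7L2 WT, 3741 genes were called: 2321 with only the 6 libraries compared and 2430 to 5503 with 1 library left out. Junction genes called higher (4) were 2 with at least 10 counts in 6 libraries, a filter that left out Gjb2 and Cldn5. Genes called higher were 7 with the length adjustment, 8 with it and without lenti-TCF7L2 WT replicate 3, and 3 to 8 with 1 library left out. Those called lower (22) were 19 to 25 with 1 library left out. The median of the junction genes (-0.42) was -0.23 without a filter, -0.25 in DESeq2 and -0.058 in limma without a filter. These fits also took in list genes that the main filter set aside, so their medians cover other sets of genes. With 1 library left out the median was -0.55 to -0.29. With lenti-TCF7L2 shRNA, 428 genes were called: 645 in DESeq2, 244 with the replicate block, 3294 with the 6 libraries compared, 979 with the length adjustment, 2603 with it and without lenti-TCF7L2 WT replicate 3, and 88 to 2056 with 1 library left out, the most without lenti-TCF7L2 WT replicate 3. Junction genes called higher (0) were 1 in DESeq2 and in limma with a pseudocount of 1 or 0.1, 5 with the 6 libraries, 2 and 5 with the length adjustments, and 0 to 3 with 1 library left out. Those lower (1) were 2 in DESeq2, 9 with the 6 libraries, 3 and 8 with the length adjustments, and 0 to 5 with 1 library left out. The median of the junction genes (-0.08) was -0.022 without a filter and -0.039 in DESeq2. In limma it was -0.046 and -0.048 with pseudocounts of 1 and 0.1, and 0 without a filter. These values again cover other sets of list genes. With 1 library left out the median was -0.10 to -0.05. With CPM in place of FPKM, the Gja5 share of connexins was 11.4% with lenti-TCF7L2 shRNA and 21.9% with lenti-NC, and the Gja1 share 82.0% and 72.1%. The replicate block, which is not a pairing given by the labels, gave 3460 genes with lenti-TCF7L2 WT; with the 244 given above, it ended the call of Gjb2 and no other named call. Depth limits Gja4 most, at 32 to 121 counts per library. The protein comparison planned for the connexins was not run.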
